A study of Mus musculus with 19 samples.

Results

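The epithelium of the mouse hindgut was compared between embryonic day 16 (E16) and embryonic day 11 (E11). The comparison took the 2 E16 and the 2 E11 RNA-seq libraries by their labelled tissue and age, 4 of the 19 samples of the series, and is described across all 24062 genes of the count table. The 2 E12 and 2 E14 hindgut libraries showed the path between both ages and shared the estimate of spread. Every group came from wild-type CD1 embryos with no treatment. The hindgut was digested with trypsin, Epcam-positive cells were sorted, and cDNA was made with a SMARTer-Seq v4 Ultra Low Input kit. Age was the only labelled difference between the groups. The libraries are called biological replicates, but whether they stand for embryos, litters or pools is not given in the sources used here, so the p-values measure only the spread between these samples.

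The hindgut is the posterior part of the endodermal gut tube and gives rise to the distal colon and rectum, while its caudal end forms the cloaca, from which the bladder lining also derives. At mid-gestation it is a proliferating tube of undifferentiated epithelium. Late in gestation it folds and forms the lineages of the colon: absorptive colonocytes, mucus-secreting goblet cells, hormone-secreting enteroendocrine cells and chemosensory tuft cells. The homeodomain factor Cdx2 gives the posterior gut its identity, nuclear receptors of the Hnf4 family drive absorptive genes, and Atoh1 commits cells to the secretory lineages.

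Levels are CPM, the counts scaled to a common library total, with TMM factors to correct for differences in library composition. Values in pairs are replicate 1 and replicate 2. Counts assigned to genes were 26693704 and 30583908 in the E11 libraries and 16861928 and 13826958 in the E16 libraries. Reads that fell on more than 1 gene made up 5.60% and 6.80% of the reads on genes at E16, against 1.41% to 1.73% in the other 6 libraries, and the part of this difference in the results was not tested. The Y-linked gene Ddx3y and Xist were both detected in all 8 libraries. The first principal component held 78.3% of the variance and placed the ages in their order, with both E16 libraries far from the rest.

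Epithelial markers were present at both ages. Epcam, the adhesion molecule used for the sort, was at 1112 and 911 CPM at E11 and at 1176 and 1273 CPM at E16. Its log2 fold change was 0.28 ± 0.12 (SE), short of the threshold (adjusted p = 0.0876), and past it without E11 replicate 1 (0.43, adjusted p = 0.0267). DESeq2 on all libraries also called it higher (0.36, adjusted p = 0.00505). Cdh1, the E-cadherin of epithelial junctions, was at 304 and 315 CPM at E11, 1440 and 1466 CPM at E14, and 863 and 814 CPM at E16. Both E16 values lay above both E11 values and below both E14 values (log2 fold change E16 against E11 1.44 ± 0.08, adjusted p = 1.23e-05). Here and below, adjusted p-values come from edgeR's quasi-likelihood test with Benjamini-Hochberg adjustment over all tested genes.

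The E16 libraries also held RNA of cell types that an Epcam sort is meant to remove. A list of 20 immune cell markers summed to 12.1 and 7.66 CPM at E11, 132 and 133 CPM at E14, and 2959 and 3108 CPM at E16. At E11, 12 of these 20 markers were at 0 in both libraries, among them Ptprc (CD45), Tyrobp, Cx3cr1, Lyz2 and the complement genes C1qa, C1qb and C1qc. Stromal and smooth muscle markers summed to 1707 and 1413 CPM at E11 and 11659 and 10285 CPM at E16. The E11 sum was mostly Postn (1111 and 817 CPM) and Fn1 (405 and 400 CPM). These were the 2 members of the list called lower at E16, while 18 were called higher. Erythroid markers summed to 527 and 408 CPM at E11 and 1894 and 2025 CPM at E16. Most of that E16 sum came from Alas2 alone, at 1441 and 1524 CPM (log2 fold change 10.77). The sum therefore does not show a rise of the erythroid list as a whole. Of its 9 tested members, 4 rose, 1 (Hbb-bh1) fell and 4 did not pass the test. Endothelial markers summed to 36.8 and 47.6 CPM at E11 and 229 and 205 CPM at E16. Neural and enteric glia markers came to 512 and 439 CPM at E11 and 640 and 674 CPM at E16. Immediate-early genes, which cells transcribe soon after a stimulus such as tissue dissociation, summed to 1485 and 1156 CPM at E11, 4503 and 4398 CPM at E14, and 25490 and 23667 CPM at E16. The part of these RNAs in the results below was not tested gene by gene. With the genes of the other-cell and immediate-early lists left out, an alternative added after the values were seen, 9065 genes passed the test, 4785 of them higher and 4280 lower. Only the listed genes were removed there, so this count cannot show how far the other calls depend on these RNAs.

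At E11, markers of another epithelium stood high. Nephric duct genes, from the urinary duct that joins the cloaca at this age, summed to 1859 and 1523 CPM at E11 and to 241 and 251 CPM at E16. Genes of basal squamous epithelium summed to 119 and 361 CPM at E11, 1592 and 1946 CPM at E14, and 371 and 361 CPM at E16. Both E14 libraries were thus the highest for this list, and E11 replicate 2 stood above E11 replicate 1. In bulk samples such as these, fewer cells of a type and less RNA per cell cannot be told apart.

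**Figure D1:**
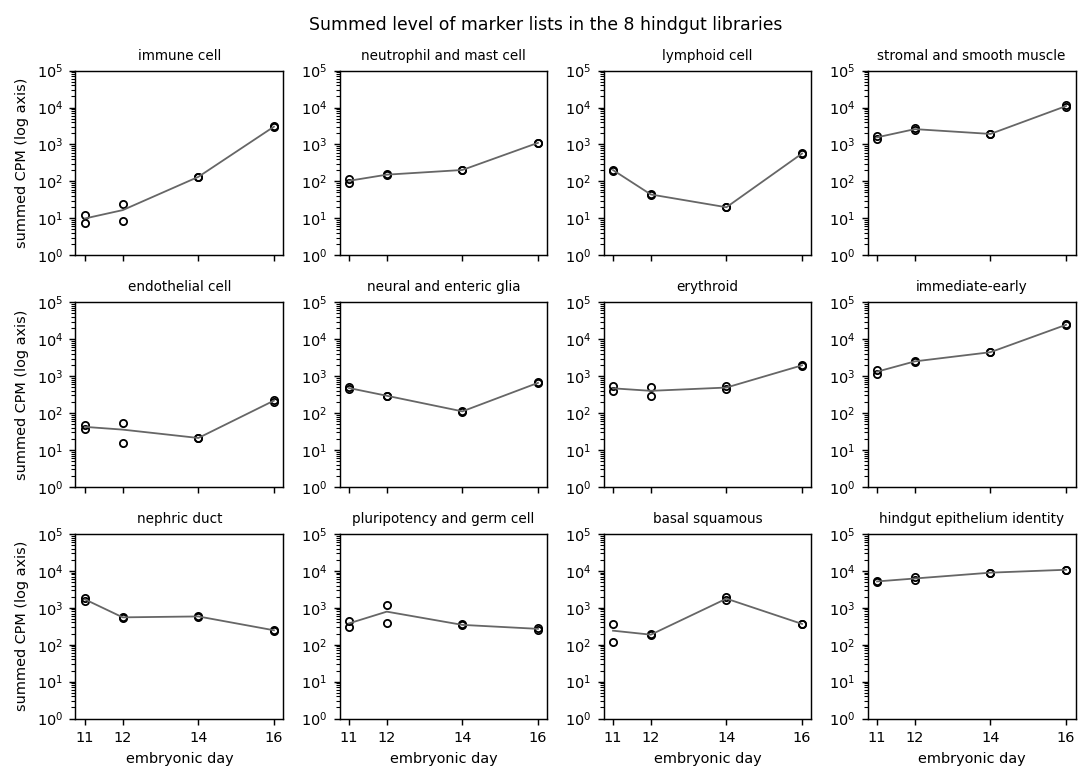
Summed level of 12 marker lists (CPM, log axis) by embryonic day, with each circle 1 of the 8 hindgut libraries and lines through the mean of each age. The immune, stromal and immediate-early sums were highest in both E16 libraries, and the nephric duct sum was highest in both E11 libraries.

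Of the 24062 genes, 16481 passed the filter on low counts and were tested. At an adjusted p under 0.05, 9188 genes (55.7%) differed between E16 and E11: 4873 (29.6%) were higher at E16 and 4315 (26.2%) were lower. In 9185 of the 9188 the libraries of both ages did not overlap, which nearly follows from passing the test and adds no support. Genes that did not pass can lack overlap too, as Epcam, Sox9 and Mki67 did. A second, stricter rule asked for a change significantly larger than 2-fold (edgeR's glmTreat), and called 2625 genes (15.9%) higher and 1291 genes (7.83%) lower. Large rises outnumbered large falls: 1741 of the called genes rose by 16-fold or more in the fitted values and 335 fell by as much. Genes called higher made up 17.2% and 17.4% of the CPM at E11 and 47.7% and 46.5% at E16, while genes called lower went from 55.8% and 54.7% to 25.7% and 27.2%. The median log2 fold change over all tested genes was 0.05.

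The number of detected genes grew with age. At E16, 14031 genes were at 1 CPM or more in both libraries, against 12652 at E11, 12734 at E12 and 12783 at E14. A group of 441 genes was at 5 CPM or more in both E16 libraries and under 0.1 CPM in both E11 libraries. Of these, 53 belonged to the marker lists of other cell types. Only listed markers were counted there, so 53 does not give the number of gained genes that other cells account for. The part of such cells in the remaining gain was not tested. Only 32 genes showed the opposite pattern.

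**Figure D2:**
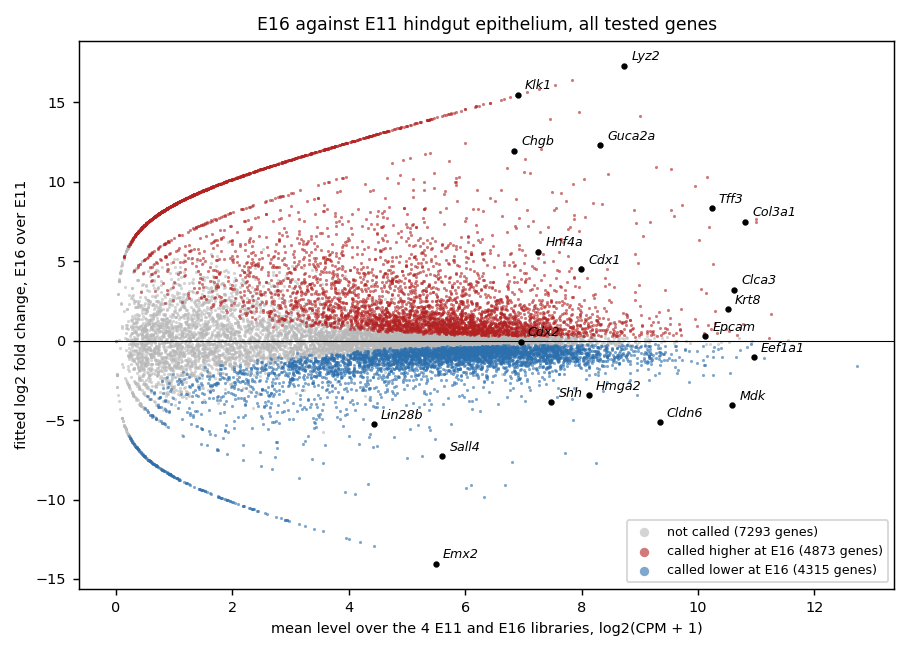
Log2 fold change of E16 against E11 (vertical axis) against mean level over the 4 libraries (horizontal axis, log2 of CPM plus 1) for the 16481 tested genes. Called genes are red (4873 higher at E16) or blue (4315 lower), and some genes are named. The curved bands at the upper and lower edge are genes at 0 in 1 age, whose fitted value depends on the prior count and is no measure of size.

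The share of genes called in each direction over the whole table is the background for the gene lists that follow. Because 55.7% of all tested genes changed, a list with about 29.6% of members higher and 26.2% lower does not stand out.

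**Figure D3:**
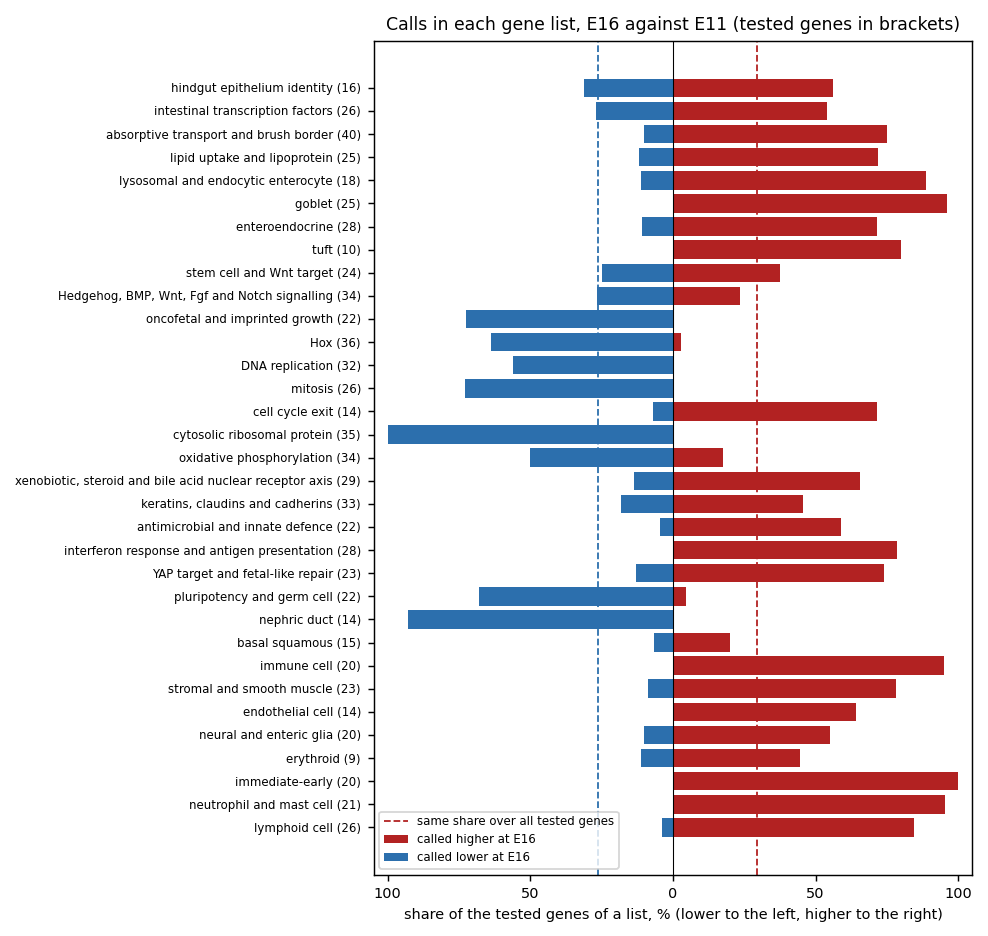
Share of the tested genes of each of the 33 lists (rows, number tested in brackets) called higher at E16 (red, to the right) or lower (blue, to the left), in percent. The dashed lines are the shares over all tested genes, 29.6% and 26.2%, which the goblet, absorptive and lysosomal lists exceed on the right and the Hox, oncofetal, ribosomal protein and nephric duct lists exceed on the left.

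Among 26 intestinal transcription factors, all of which were tested, 14 rose, 7 fell and 5 did not pass the test, with a median log2 fold change of 0.64. Cdx2 was at 150 and 101 CPM at E11 and 107 and 133 CPM at E16. The values of the 2 ages overlapped (log2 fold change -0.06 ± 0.31, adjusted p = 0.876). Its relative Cdx1, which also specifies posterior gut, was at 18 and 24.5 CPM at E11, fell to 1.60 and 3.17 CPM at E12 and reached 518 and 451 CPM at E16 (log2 fold change 4.51 ± 0.26, adjusted p = 1.19e-05). Thus only Cdx1 of this pair passed the test between E11 and E16.

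Nuclear receptors of the absorptive programme were low at E11 and came on over the following days. Hnf4a, at chr2:163506811-163572907 (GRCm38), was at 7.18 and 5.23 CPM at E11, 31.9 and 59.3 CPM at E12, 367 and 338 CPM at E14, and 318 and 278 CPM at E16. Its rise was therefore complete by E14 (log2 fold change E16 against E11 5.59 ± 0.33, adjusted p = 1.23e-05). Hnf4g, its close relative, stood at 2.78 and 0.195 CPM at E11 and 72.1 and 78.3 CPM at E16 (log2 fold change 5.69, and 8.55 without E11 replicate 1). Nr1h4, the bile acid receptor FXR, stood at 1.80 and 0.487 CPM against 77.1 and 84.0 CPM (log2 fold change 6.15, and 7.35 without E11 replicate 1). The epithelial factor Elf3 rose from 24.2 and 41.7 CPM to 506 and 514 CPM (log2 fold change 3.95 ± 0.24, adjusted p = 1.42e-05), and Isx, a target of Cdx2 that controls vitamin A uptake, from 12.6 and 6.33 CPM to 98.0 and 98.2 CPM.

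Of the 7 factors that fell, Foxa2 and Onecut2 are described here. Foxa2, a pioneer factor of endoderm, was at 58.0 and 66.8 CPM at E11, still at 83.4 and 85.5 CPM at E14, and at 13.1 and 9.71 CPM at E16 (log2 fold change -2.44 ± 0.20, adjusted p = 5.28e-05). Onecut2 dropped from 22.6 and 10.2 CPM to 1.17 and 1.28 CPM (log2 fold change -3.74, and -3.06 without E11 replicate 1). Sox9, a factor of progenitors, was at 188 and 187 CPM at E11 and 182 and 144 CPM at E16, after 393 and 417 CPM at E14, and did not pass the test between the outer ages (log2 fold change -0.20 ± 0.12, adjusted p = 0.183; without E16 replicate 1, -0.35, adjusted p = 0.0406).

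Absorptive transport and brush border genes rose as a list. Of 41 genes, 40 were tested: 30 rose, 4 fell and 6 did not pass the test, with a median log2 fold change of 4.44, against 0.05 for all tested genes. By the stricter rule 27 rose by over 2-fold and 3 fell. Vil1, which encodes villin, the actin bundler of the microvillus, was at 15.9 and 17.2 CPM at E11, 38.0 and 52.3 CPM at E12, 159 and 155 CPM at E14, and 248 and 246 CPM at E16. Each age was higher than the one before (log2 fold change E16 against E11 3.90 ± 0.17, adjusted p = 4.72e-06).

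The intestinal cadherin Cdh17 was among the largest rises of the whole table. It was at 0 in both E11 libraries, at 15.5 and 14.5 CPM at E12, 251 and 230 CPM at E14, and 471 and 434 CPM at E16. Against a floor of 3 counts over both E11 libraries it was at least 8697-fold higher (adjusted p = 1.01e-06). Eps8l3, an actin regulator of the same family as a microvillus protein, was at 0 at E11 and at E12, then at 13.3 and 14.1 CPM at E14 and 153 and 144 CPM at E16, at least 2859-fold higher than at E11. Mep1a, a brush border protease, had 1 count at E11 and reached 129 and 121 CPM at E16, a ratio of 7208 with a 95% counting interval of 1293 to 284783. Cdhr2 and Cdhr5, the cadherins that link microvilli to each other, went from 0 and 0.162 CPM to 134 and 98.4 CPM and from 9.58 and 2.99 CPM to 196 and 193 CPM. Ceacam1, an apical adhesion molecule, rose from 1.99 and 1.36 CPM to 665 and 637 CPM (log2 fold change 8.61 ± 0.22, adjusted p = 1.01e-06).

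The guanylin pathway, by which the gut lumen controls chloride and water secretion, rose in both its ligand and its receptor. Guca2a, which encodes guanylin, was at 0 and 0.227 CPM at E11, 4.14 and 3.11 CPM at E14, and 581 and 688 CPM at E16 (7 counts in all at E11, adjusted p = 5.02e-06). Nearly all of its rise in CPM thus fell after E14. On log2 of CPM plus 1, 22.4% of the rise was made by E14. The receptor Gucy2c was already at 37.2 and 19.5 CPM at E11 and reached 357 and 285 CPM (log2 fold change 3.50 ± 0.29, adjusted p = 5.30e-05). Several transporters of the mature colon were still low at E16: Slc26a3, the chloride exchanger, was at 6.41 and 1.20 CPM, and Slc9a3, the sodium exchanger NHE3, at 1.42 and 1.28 CPM. Espn, which encodes the actin bundler espin, was among the 4 members that fell, from 191 and 184 CPM to 47.1 and 45.1 CPM (log2 fold change -2.02 ± 0.10, adjusted p = 7.49e-06). The villin-like gene Vill fell from 48.9 and 47.0 CPM to 12.8 and 11 CPM after a peak at E14 of 91.1 and 96.2 CPM.

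Of 25 tested lipid uptake and lipoprotein genes, 18 rose, 3 fell and 4 did not pass the test, with a median log2 fold change of 1.98 (2.72 without E11 replicate 2). Apoa1, a lipoprotein core protein, went from 23.3 and 14.2 CPM to 171 and 214 CPM (log2 fold change 3.36 ± 0.29, adjusted p = 7.10e-05). The 2 cytosolic fatty acid binding proteins of the gut parted: Fabp2 rose from 1.24 and 2.66 CPM to 47.6 and 52.4 CPM (log2 fold change 4.67, and 5.33 without E11 replicate 2), whereas Fabp1 fell from 63.4 and 34.1 CPM to 3.20 and 5.79 CPM (log2 fold change -3.44 ± 0.41, adjusted p = 2.93e-04). Apobec1, the enzyme that edits Apob mRNA, was at 0 at E11 and at 25 and 30.2 CPM at E16, at least 524-fold higher.

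Of 18 lysosomal and endocytic genes, which fetal and suckling enterocytes use to take up protein, 16 rose and 2 fell. Mamdc4, which encodes the endocytic protein endotubin of the fetal gut, was at 3.98 and 2.66 CPM at E11, 6.14 and 5.64 CPM at E14, and 457 and 406 CPM at E16 (log2 fold change 7.03 ± 0.24, adjusted p = 2.44e-06). Neu1, a lysosomal sialidase, rose from 57.6 and 52.8 CPM to 307 and 287 CPM. The endocytic receptor Lrp2 fell from 20.9 and 17.7 CPM to 0.678 and 0.828 CPM (log2 fold change -4.67 ± 0.57, adjusted p = 3.37e-04). Lysosomal enzymes are also made by macrophages, whose markers were high at E16, and their part was not tested.

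Among the epithelial lists, goblet cell genes had the largest share of rising members. Of 26 genes, 25 were tested, 24 rose and none fell, and 23 passed the stricter rule, with a median log2 fold change of 7.93 (7.77 with genes at 0 in 1 age set to their bound, and 9.06 without E11 replicate 2). Atoh1, the factor that commits secretory cells, was at 0 in both E11 libraries, at 0.399 and 0 CPM at E12, 9.36 and 8.54 CPM at E14, and 184 and 155 CPM at E16, at least 3270-fold higher than at E11 (adjusted p = 3.29e-05). Spdef, which acts downstream in goblet cell maturation, went from 5 and 3.64 CPM to 233 and 240 CPM (log2 fold change 5.78 ± 0.27, adjusted p = 6.47e-06). At E14 Spdef was still at 11.7 and 8.79 CPM, so both factors made most of their rise after that age.

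Secreted products of goblet cells were also low at E14. Muc2, the gel-forming mucin, was at 0.0376 and 0.844 CPM at E11, 0.0871 and 0.0415 CPM at E14, and 148 and 146 CPM at E16 (adjusted p = 1.46e-04). The trefoil factor Tff3 was at 7.37 and 7.69 CPM at E11, 12.8 and 13.0 CPM at E14, and 2075 and 2727 CPM at E16 (log2 fold change 8.31 ± 0.22, adjusted p = 1.16e-06). Fcgbp, a mucin-binding protein, went from 2.33 and 2.24 CPM to 2252 and 1716 CPM (log2 fold change 9.76 ± 0.40, adjusted p = 4.23e-06). The groups did not overlap for any of the 3. Agr2, the disulfide isomerase needed to fold mucin, went from 0.526 and 2.95 CPM to 2039 and 2494 CPM. Klk1, a secreted kallikrein protease, was at 0 at E11, 0.218 and 0.373 CPM at E14, and 214 and 262 CPM at E16, at least 4505-fold higher than at E11 (adjusted p = 7.61e-06). Clca3, a secreted goblet cell protein, differed from the others in standing at 372 and 241 CPM already at E11 and 2884 and 2782 CPM at E16 (log2 fold change 3.21 ± 0.24, adjusted p = 3.43e-05).

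Enteroendocrine genes rose late, and a subset fell. Of 30 genes, 28 were tested: 20 rose, 3 fell and 5 did not pass the test. Chgb, a granin of hormone granules, had 3 counts at E11 and stood at 241 and 215 CPM at E16, a ratio of 4391 with a 95% counting interval of 1502 to 21298. Pyy, the peptide YY hormone of the distal gut, went from 0.113 and 1.72 CPM to 391 and 452 CPM (adjusted p = 1.06e-04), and Gcg, the proglucagon gene, from 0.113 and 0.682 CPM to 163 and 198 CPM (adjusted p = 1.73e-04). Insl5, a hormone of colonic L cells, and Nts, which encodes neurotensin, were at 0 at E11 and at least 736-fold and 1050.9-fold higher at E16. The endocrine commitment factor Neurog3 was at 0 at E11 and E12 and at 13.1 and 16.3 CPM at E16, at least 277-fold higher. Isl1, a LIM homeodomain factor also used outside the endocrine lineage, fell from 184 and 300 CPM to 19.9 and 14.1 CPM (log2 fold change -3.82 ± 0.34, adjusted p = 8.09e-05). All 20 endocrine genes that rose 2-fold or more had made less than 50% of their change by E14.

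Of 14 tuft cell genes found in the table, 10 were tested, 8 rose and none fell. The 3 members that reached 10 CPM with the largest rises were the eicosanoid enzymes Alox5ap, Hpgds and Ptgs1, which immune cells also express. Alox5ap went from 2.22 and 2.14 CPM to 48.7 and 47.1 CPM (log2 fold change 4.46 ± 0.32, adjusted p = 2.79e-05). The defining tuft cell factor Pou2f3 stood at 0.801 and 0 CPM at E16. The part of the immune cells in the rise of these 3 genes was not tested.

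**Figure D4:**
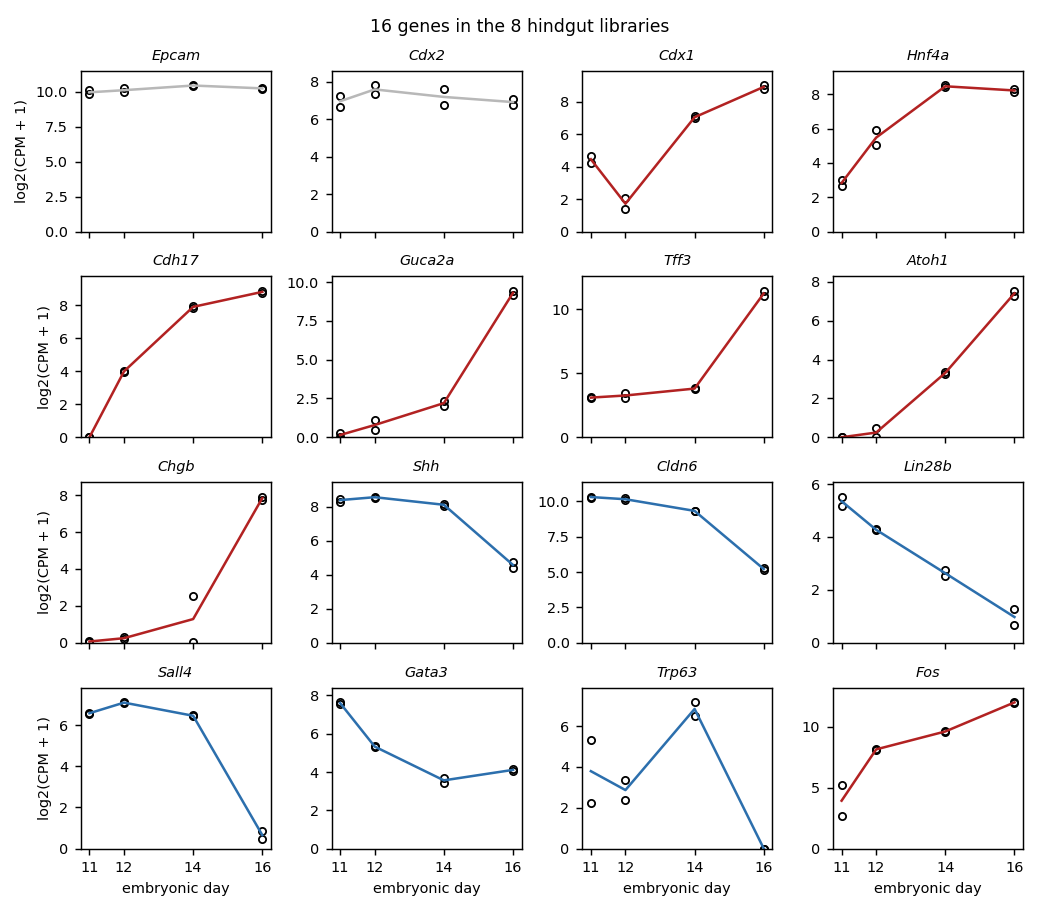
Level (log2 of CPM plus 1) of 16 genes by embryonic day, with each circle 1 of the 8 hindgut libraries and lines through the mean of each age (red, called higher at E16; blue, called lower; grey, not called). Hnf4a is near its E16 level by E14, Atoh1 and Guca2a rise mostly after E14, and Shh and Sall4 fall after E14.

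The promoters of genes that rose were poorer in CG dinucleotides than those of other genes. The window read was the 250 bases before the annotated start (RefSeq, GRCm38.p6), which was at hand for 12878 of the 16481 tested genes. The observed over expected CG content, which is near 1 where CG is as frequent as the base composition gives and low where it is depleted, had a median of 0.46 over 1982 windows of genes higher by over 2-fold. It was 0.67 over 1021 windows of genes lower by over 2-fold and 0.69 over all windows. A ratio over 0.6 was found in 38.7%, 58.0% and 60.4% of these windows. Over 43 windows of absorptive, lipid and goblet genes higher by over 2-fold the median was 0.27, and over 66 windows of other-cell markers higher by over 2-fold it was 0.23. With the other-cell and immediate-early lists left out, 2508 of the 2625 rising genes remained, with a median of 0.46 over 1900 windows. So few genes were removed that this median could hardly move. The part of other cells in the low CG content was not tested. For 27 windows of ribosomal protein genes, which fell, it was 0.81. These are descriptions of the windows, with no test.

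Windows poor and rich in CG are shown here from a rising and a falling pair of genes, 5′ to 3′ on the strand of the gene with each CG in capitals. Guca2a and Klk1 are 2 of the large rises, and Rpl23, a ribosomal protein gene, and Hoxd1, a homeobox gene, are 2 of the falls described below. They are examples that do not stand for all falls: the windows of Hmga2, Cldn6 and Lin28b, which also fell, have ratios of 0.45, 0.50 and 0.63, and falling genes as a set were close to all windows. The Guca2a window (chr4:119637482-119637731, plus strand) holds 1 CG, the Klk1 window (chr7:44225110-44225359, plus strand) 0, the Rpl23 window (chr11:97782440-97782689, minus strand) 15 and the Hoxd1 window (chr2:74762730-74762979, plus strand) 24.
Guca2a: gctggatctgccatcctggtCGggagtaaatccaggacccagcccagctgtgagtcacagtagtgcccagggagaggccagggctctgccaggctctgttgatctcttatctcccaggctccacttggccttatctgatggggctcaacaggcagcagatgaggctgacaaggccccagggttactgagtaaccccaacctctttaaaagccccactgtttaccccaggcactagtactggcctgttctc
Klk1: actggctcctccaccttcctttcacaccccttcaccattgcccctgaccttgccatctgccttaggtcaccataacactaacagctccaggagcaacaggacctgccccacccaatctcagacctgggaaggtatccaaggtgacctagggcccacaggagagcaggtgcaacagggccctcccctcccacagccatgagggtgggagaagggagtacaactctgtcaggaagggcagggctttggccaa
Rpl23: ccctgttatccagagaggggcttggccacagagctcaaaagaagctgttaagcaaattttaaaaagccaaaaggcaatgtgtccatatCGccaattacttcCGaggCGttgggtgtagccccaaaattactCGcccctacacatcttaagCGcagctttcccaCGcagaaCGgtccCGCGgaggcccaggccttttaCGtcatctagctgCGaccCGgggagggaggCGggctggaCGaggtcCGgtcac
Hoxd1: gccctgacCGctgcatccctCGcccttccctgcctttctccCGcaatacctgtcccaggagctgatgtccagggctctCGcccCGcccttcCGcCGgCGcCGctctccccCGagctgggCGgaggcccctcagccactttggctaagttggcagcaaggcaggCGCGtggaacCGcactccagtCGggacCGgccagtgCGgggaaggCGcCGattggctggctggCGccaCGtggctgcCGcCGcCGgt

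The core promoter motif TATAAA, searched on both strands, was found in 10.34% of windows of genes higher by over 2-fold, 7.35% of those lower and 7.42% of all windows. Counted only on the strand of the gene and where it lay 40 to 15 bases before the start, it was in 3.2%, 2.1% and 1.7%. The Mamdc4 window (chr2:25571317-25571566, minus strand) has it at 28 bases before the start, printed in capitals.
Mamdc4: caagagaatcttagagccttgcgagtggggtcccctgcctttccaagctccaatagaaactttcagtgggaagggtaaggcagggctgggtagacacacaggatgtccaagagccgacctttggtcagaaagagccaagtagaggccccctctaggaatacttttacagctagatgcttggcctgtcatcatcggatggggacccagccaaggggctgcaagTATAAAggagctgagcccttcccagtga
The HNF4 motif CAAAGTCC was in 2.52% of windows of genes higher by over 2-fold, 1.18% of those lower and 1.35% of all. The CDX motif TTTATGG was in 1.77%, 1.57% and 1.57%, and the E2F motif TTTCCCGC in 0.66%, 1.37% and 1.58%. The E-box CACCTG was in 19.42%, 16.06% and 16.14%. Matches of short letters describe the windows and are not binding sites.

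Wnt targets and stem cell genes moved in no common direction. Of 24 tested genes, 9 rose, 6 fell and 9 did not pass the test, with a median log2 fold change of 0.36. Lgr5, the receptor that marks crypt stem cells, was at 6.20 and 15.5 CPM at E11 and 17.7 and 9.56 CPM at E16, so the groups overlapped (log2 fold change 0.33 ± 0.51, adjusted p = 0.612). The sign of that value turned without E11 replicate 1 (-0.19) and without E16 replicate 1 (-0.16). Ascl2, a stem cell factor, was at 1.69 and 2.60 CPM against 6.04 and 5.87 CPM and passed narrowly (log2 fold change 1.47 ± 0.49, adjusted p = 0.0354). Without E11 replicate 1, either E14 replicate or either E16 replicate it did not pass (adjusted p from 0.0659 to 0.12). Slc12a2, a chloride cotransporter of crypt cells, rose from 62.6 and 52.8 CPM to 325 and 309 CPM (log2 fold change 2.46 ± 0.15, adjusted p = 1.66e-05). Tnfrsf19, a Wnt target, fell from 70.5 and 88.1 CPM to 15.4 and 12.9 CPM (log2 fold change -2.48 ± 0.23, adjusted p = 1.01e-04).

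The 2 hedgehog ligands, which signal from epithelium to mesenchyme, moved in opposite directions. Shh, at chr5:28456840-28467101 (GRCm38), was at 312 and 352 CPM at E11, 363 and 383 CPM at E12, 287 and 261 CPM at E14, and 20 and 25.9 CPM at E16. Nearly all of the fall lay between E14 and E16 (log2 fold change E16 against E11 -3.86 ± 0.15, adjusted p = 3.62e-06). Ihh was at 80.0 and 84.9 CPM at E11, 247 and 268 CPM at E14 and 295 and 276 CPM at E16 (log2 fold change 1.79 ± 0.15, adjusted p = 5.50e-05). Ihh thus stood above its E11 level at E14, when Shh was still high. Ptch1, the receptor and a target of both ligands, rose from 11.8 and 12 CPM to 52.5 and 34.0 CPM (log2 fold change 1.86 ± 0.25, adjusted p = 5.20e-04), and stromal cells, whose markers rose as well, also express it.

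Over the whole list of 34 tested ligands, receptors and targets of the Hedgehog, BMP, Wnt, Fgf and Notch pathways, 8 rose, 9 fell and 17 did not pass the test. Among Wnt ligands, Wnt11 fell from 73.1 and 70.5 CPM to 5.18 and 3.99 CPM (log2 fold change -3.96 ± 0.19, adjusted p = 6.69e-06), and Wnt6 from 59.7 and 112 CPM to 0.616 and 1.73 CPM, most of it by E12 (8.27 and 1.95 CPM). Dkk1, a secreted Wnt inhibitor, was at 146 and 107 CPM at E11, 12.1 and 8.05 CPM at E12, 0 at E14, and 0.370 and 0 CPM at E16. The Notch ligand Dll1, made by secretory progenitors, rose from 1.09 and 1.66 CPM to 54.1 and 51.8 CPM (log2 fold change 5.26 ± 0.53, adjusted p = 1.31e-04), and Dll4 from 2.71 and 1.53 CPM to 32.8 and 27.5 CPM (log2 fold change 3.83 ± 0.38, adjusted p = 1.30e-04). Bmp2 rose from 27.3 and 36.2 CPM to 185 and 184 CPM (log2 fold change 2.54 ± 0.16, adjusted p = 1.54e-05).

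Genes of the fetal growth programme fell. None of the 22 tested oncofetal and imprinted genes rose, 16 fell, 9 of them by the stricter rule, and 6 did not pass the test, with a median log2 fold change of -1.10. Lin28b, an RNA-binding protein that blocks maturation of let-7 microRNAs, was at 35.1 and 45.1 CPM at E11, 18.5 and 18.1 CPM at E12, 4.70 and 5.72 CPM at E14, and 1.42 and 0.602 CPM at E16. Each age was lower than the one before (log2 fold change -5.28 ± 0.42, adjusted p = 4.66e-05; -6.02 without E16 replicate 1). Hmga2, a chromatin protein and let-7 target, was at 588 and 431 CPM at E11, 252 and 245 CPM at E14, and 34.7 and 59.7 CPM at E16 (log2 fold change -3.44 ± 0.26, adjusted p = 3.53e-05). Igf2bp1, another let-7 target, fell from 199 and 191 CPM to 43.0 and 45.7 CPM (log2 fold change -2.14 ± 0.10, adjusted p = 6.26e-06).

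Imprinted growth genes of the list fell as well. Igf2, the fetal growth factor, went from 904 and 607 CPM to 425 and 410 CPM (log2 fold change -0.85 ± 0.18, adjusted p = 0.00502), and its neighbour H19 from 963 and 818 CPM to 342 and 456 CPM (log2 fold change -1.16 ± 0.14, adjusted p = 3.38e-04). Peg3, a paternally expressed zinc finger gene, went from 460 and 725 CPM to 68.0 and 64.1 CPM (log2 fold change -3.17 ± 0.22, adjusted p = 2.74e-05). Outside the list, Mdk, the embryonic growth factor midkine, fell from 3099 and 2701 CPM to 168 and 178 CPM (log2 fold change -4.07 ± 0.10, adjusted p = 1.01e-06). Gpc3, a glypican that restrains growth, fell from 2340.1 and 2476 CPM to 595 and 559 CPM (log2 fold change -2.06). Both were among the 6 falling genes with the highest mean level.

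Hox genes, which encode position along the body axis, fell as a list. Of 39 genes, 36 were tested: 23 fell, 15 of them by the stricter rule, 1 rose and 12 did not pass the test, with a median log2 fold change of -1.57. Hoxd1, at chr2:74762980-74765142 (GRCm38), was at 40.9 and 43.5 CPM at E11, 8.78 and 2.68 CPM at E12, 0.0435 and 0 CPM at E14, and 0 and 0.903 CPM at E16 (adjusted p = 0.0017). Hoxd8 fell from 63.5 and 62.2 CPM to 3.27 and 4.89 CPM (log2 fold change -3.95 ± 0.28, adjusted p = 2.75e-05). Both E16 values of each gene lay far below both E11 values. Hoxb13, the most posterior gene of its cluster, was the 1 that rose: it was at 23.3 and 3.34 CPM at E11, 210 and 219 CPM at E12, 297 and 296 CPM at E14, and 73.1 and 78.2 CPM at E16 (log2 fold change 2.52 ± 0.66, adjusted p = 0.0132). The 2 E11 libraries differed for it, and the value was 4.50 without E11 replicate 1 and 1.69 without E11 replicate 2. Of the 23 Hox genes that fell, 9 had passed the midpoint of their change by E12 and 7 more by E14.

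Genes of pluripotent and germ cells fell as well. Germ cells carry many of these transcripts, and whether such cells were in the sorted samples was not tested. Of 22 tested genes, 15 fell, 1 rose and 6 did not pass the test. Sall4, a zinc finger factor of stem and germ cells, was at 96.8 and 92.8 CPM at E11, 134 and 138 CPM at E12, 88.0 and 85.8 CPM at E14, and 0.801 and 0.376 CPM at E16 (log2 fold change -7.27 ± 0.22, adjusted p = 1.76e-06; -7.93 without E16 replicate 1). Its loss after E14 set it apart from the germ cell genes Dppa3 and Rhox9, which were already at or near 0 at E14. Dppa3 was at 22.8 and 46.0 CPM at E11, 131 and 12.1 CPM at E12, 0.0871 and 0 CPM at E14 and 0 at E16, at least 347-fold lower at E16 than at E11 (224-fold without E11 replicate 2). The 2 E12 libraries differed in the whole list, which summed to 1182 CPM in E12 replicate 1 and 392 CPM in E12 replicate 2.

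Nephric duct genes fell in 13 of 14 tested members, with a median log2 fold change of -4.52. Emx2, a homeobox factor of the urogenital tract, was at 100 and 76.0 CPM at E11, 6.35 and 1.22 CPM at E12, and 0 at E14 and E16, at least 859-fold lower (adjusted p = 8.24e-04). Gata3, a factor that guides the duct to the cloaca, was at 200 and 187 CPM at E11, 38.8 and 39.6 CPM at E12 and 15.7 and 16.9 CPM at E16 (log2 fold change -3.57 ± 0.14, adjusted p = 4.23e-06). Pax2 was at 15.8 and 10.1 CPM at E11 and at 0 at E16, at least 125-fold lower. Calb1, a calcium-binding protein of the duct, was at 686 and 519 CPM at E11 and 1.91 and 4.14 CPM at E16. For 9 of the 12 members that fell 2-fold or more, more than 50% of the change lay between E11 and E12.

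Basal squamous genes followed a course of their own, peaking at E14. Of 15 tested genes in the basal list, 3 rose, 1 fell and 11 did not pass the test between E11 and E16. Trp63, the master factor of stratified epithelium, was at 3.76 and 39.5 CPM at E11, 90.6 and 144 CPM at E14 and 0 at E16, at least 226-fold lower than at E11 (389-fold without E11 replicate 1 and 37-fold without E11 replicate 2). Krt5, a keratin of basal cells, was at 0.0376 CPM in E11 replicate 1 and 42.1 CPM in E11 replicate 2, so the 2 E11 libraries differed in this content. Sfn, the epithelial 14-3-3 protein sigma, rose from 6.20 and 23.6 CPM to 84.1 and 93.8 CPM, below its E14 level of 185 and 191 CPM (log2 fold change 2.57, 1.91 without E11 replicate 1 and 3.84 without E11 replicate 2).

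Genes of DNA replication and mitosis fell, by small steps. Of 32 tested replication genes, 18 fell and none rose, with a median log2 fold change of -0.67. Of 26 mitosis genes, 19 fell and none rose, also with a median of -0.67. Mki67, the usual marker of cycling cells, was at 103 and 135 CPM at E11 and 84.2 and 99.6 CPM at E16 with a log2 fold change of -0.37 ± 0.19, short of the threshold (adjusted p = 0.135). Ccnb1, cyclin B1 of mitotic entry, was at 182 and 182 CPM at E11, 182 and 182 CPM at E14, and 70.1 and 66.0 CPM at E16 (log2 fold change -1.42 ± 0.09, adjusted p = 1.45e-05). Gins1, part of the replicative helicase, went from 48.4 and 54.5 CPM to 14.1 and 15 CPM (log2 fold change -1.82 ± 0.17, adjusted p = 8.42e-05), and Cenpf, a kinetochore protein, from 177 and 204 CPM to 46.6 and 46.2 CPM (log2 fold change -2.04 ± 0.16, adjusted p = 4.94e-05).

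A list named for cell cycle exit moved the other way, with 10 of 14 tested members higher, 1 lower and 3 not past the test. The list mixes inhibitors and antiproliferative genes with the G1 cyclins Ccnd1, Ccnd2 and Ccnd3. Its counts are therefore not counts of exit genes alone. Rbl2, the pocket protein p130 of resting cells, rose from 10.6 and 9.90 CPM to 54.2 and 60.0 CPM (log2 fold change 2.47 ± 0.22, adjusted p = 7.81e-05). Cdkn1a, the cyclin kinase inhibitor p21, rose from 129 and 93.5 CPM to 258 and 256 CPM (log2 fold change 1.21 ± 0.19, adjusted p = 0.00137). Btg2, an antiproliferative gene that is also an immediate-early gene, rose from 21.8 and 20.9 CPM to 965 and 915 CPM (log2 fold change 5.46 ± 0.22, adjusted p = 4.23e-06). Ccnd1, the G1 cyclin D1, was the member that fell, from 218 and 277 CPM to 103 and 107 CPM.

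All 35 tested cytosolic ribosomal protein genes fell, and 13 of them passed the stricter rule, with a median log2 fold change of -1.13. Their summed level was 19143 and 17567 CPM at E11 and 8241 and 9542 CPM at E16. Rpl23 was at 405 and 367 CPM at E11, 313 and 278 CPM at E12, 175 and 188 CPM at E14, and 116 and 159 CPM at E16 (log2 fold change -1.49 ± 0.15, adjusted p = 1.52e-04). Rps28, of the small subunit, went from 150 and 139 CPM to 37.3 and 48.0 CPM (log2 fold change -1.76 ± 0.15, adjusted p = 6.45e-05). The 25 members that fell 2-fold or more had all passed 50% of the change between E12 and E14. Many ribosomal protein genes have near-identical processed copies in the genome, so their counts are uncertain in so far as reads can be split between copies. Eef1a1, the translation elongation factor, fell too (log2 fold change -1.03).

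Genes of oxidative phosphorylation were divided: of 34 tested, 6 rose, 17 fell and 11 did not pass the test, and none passed the stricter rule, with a median log2 fold change of -0.19. Atp5a1, the alpha subunit of ATP synthase, rose from 1155 and 1210.1 CPM to 1774 and 1765 CPM (log2 fold change 0.58 ± 0.07, adjusted p = 3.19e-04). Sdha of complex II rose from 296 and 318 CPM to 428 and 439 CPM. The small subunits Ndufb5 and Cox6c fell from 272 and 252 CPM to 112 and 139 CPM and from 399 and 304 CPM to 155 and 194 CPM. The glycolytic enzyme Pkm fell as well (log2 fold change -1.08).

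Among 33 tested keratins, claudins and cadherins, 15 rose, 6 fell and 12 did not pass the test. Krt8, a keratin of simple epithelium, rose from 556 and 624 CPM to 2347 and 2300.1 CPM (log2 fold change 1.98 ± 0.09, adjusted p = 6.47e-06). Krt19 rose from 542 and 541 CPM to 1939 and 2002 CPM (log2 fold change 1.86), of which most was reached by E14, at 1592 and 1657 CPM. Cldn6, a claudin of embryonic epithelium, had the clearest fall of the table by adjusted p-value. It was at 1290.2 and 1228 CPM at E11, 1087 and 1175 CPM at E12, 643 and 634 CPM at E14, and 34.9 and 37.5 CPM at E16 (log2 fold change -5.12 ± 0.10, adjusted p = 4.84e-07). Cldn23 rose from 33.0 and 21.3 CPM to 255 and 239 CPM (log2 fold change 3.19 ± 0.20, adjusted p = 1.62e-05), and the P-cadherin gene Cdh3 fell from 158 and 145 CPM to 14.9 and 17.4 CPM (log2 fold change -3.24 ± 0.13, adjusted p = 3.64e-06).

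Of 29 tested genes of xenobiotic, steroid and bile acid handling, 19 rose, 4 fell and 6 did not pass the test, with a median log2 fold change of 3.42. Nr1i2, the xenobiotic receptor PXR, was at 0 at E11, 9.36 and 4.73 CPM at E14 and 13.1 and 12.3 CPM at E16, at least 244-fold higher than at E11. Its known target Abcb1a, a drug efflux pump, had 3 counts at E11 and stood at 41.2 and 36.8 CPM at E16, a ratio of 751 with a 95% counting interval of 256 to 3646. Hsd17b2, which inactivates sex steroids, was at 0 at E11 and at 33.0 and 36.1 CPM at E16, at least 659-fold higher. Another efflux pump, Abcg2, fell from 207 and 202 CPM to 76.7 and 98.6 CPM (log2 fold change -1.22 ± 0.20, adjusted p = 0.00153).

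A list of YAP targets and genes of fetal-like repair, which the injured adult gut switches on, rose in 17 of 23 tested members and fell in 3. Anxa1, an annexin of this state, went from 21.6 and 19.3 CPM to 397 and 444 CPM (log2 fold change 4.36 ± 0.23, adjusted p = 8.19e-06) and was at 308 and 400 CPM at E14. S100a6 went from 9.73 and 10.8 CPM to 277 and 352 CPM (log2 fold change 4.93 ± 0.15, adjusted p = 1.76e-06). Clu, which encodes clusterin and marks revival stem cells, fell from 82.0 and 88.7 CPM to 27.6 and 20 CPM (log2 fold change -1.84 ± 0.16, adjusted p = 7.06e-05). Cyr61, a YAP target that is also induced by stimuli, rose from 113 and 56.5 CPM to 2509 and 2246 CPM, in the same libraries in which immediate-early genes were highest.

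Interferon and antigen presentation genes rose in 22 of 28 tested members, none fell, and the median log2 fold change was 3.69 (4.58 without E11 replicate 2). H2-T3, which encodes the thymus leukemia antigen of gut epithelium, was at 0 at E11, 1.26 and 1.62 CPM at E14 and 27.1 and 31.0 CPM at E16, at least 552-fold higher. Psmb8, a subunit of the immunoproteasome, was at 0 at E11 and 59.4 and 62.7 CPM at E16, at least 1166-fold higher. The class II genes of professional antigen-presenting cells rose too: Cd74, the invariant chain, was at 0 and 0.941 CPM at E11 and 461 and 460 CPM at E16. H2 genes have near-identical copies, and their counts are uncertain to that extent. The immune marker sums given above moved with this list, and their part in it was not tested.

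Of 22 tested antimicrobial genes, 13 rose, 1 fell and 8 did not pass the test, with a median log2 fold change of 4.37 (3.74 with genes at 0 in 1 age set to their bound). It was 7.94 without E11 replicate 2, 9.25 under a stricter filter on low counts, and 3.04 with genes of the other-cell and immediate-early lists left out. Lypd8, a colonocyte protein that keeps flagellated bacteria off the epithelium, went from 0 and 1.17 CPM to 375 and 421 CPM (adjusted p = 4.02e-05). Reg4, a lectin of secretory cells, went from 11.2 and 9.35 CPM to 255 and 286 CPM (log2 fold change 4.72 ± 0.45, adjusted p = 1.07e-04). Other members of the list are products of myeloid cells. Lyz2, the macrophage lysozyme, was at 0 at E11 and at 808 and 893 CPM at E16, at least 16195-fold higher. Ltf and Lcn2, which neutrophils store in granules, were at 0 at E11 and at least 1667-fold and 472-fold higher at E16. Neutrophil and mast cell markers rose in 20 of 21 tested members, with S100a9 at 0 through E14 and at 86.5 and 104 CPM at E16.

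All 20 immediate-early genes rose. Fos was at 35.4 and 5.36 CPM at E11, 269 and 294 CPM at E12, 801 and 762 CPM at E14, and 4139 and 4034 CPM at E16 (log2 fold change 7.66 ± 0.80, adjusted p = 1.61e-04; 9.57 without E11 replicate 1 and 6.85 without E11 replicate 2). Nr4a1 was at 3.08 and 6.79 CPM at E11 and 1591 and 1382 CPM at E16 (log2 fold change 8.22 ± 0.47, adjusted p = 1.17e-05; 8.91 without E11 replicate 2). Each age was above the one before for Fos. The Egfr ligands Areg and Ereg, which are also induced by stimuli, were at 0 at E11 and at least 551-fold and 252-fold higher at E16.

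Most rises passed their midpoint after E14, while falls were divided between the steps from E12 to E14 and from E14 to E16. Among 3759 genes called higher and changed at least 2-fold, 319 (8.5%) had passed 50% of their E11 to E16 change by E12, 1166 (31.0%) passed it between E12 and E14, and 2274 (60.5%) after E14. The largest of the 3 steps was that from E14 to E16 for 2444 of them (65.0%). Among 2456 genes called lower and changed at least 2-fold the corresponding numbers were 255 (10.4%), 1152 (46.9%) and 1049 (42.7%). The median share of the change made by E14 was 31.5% for rises and 56.0% for falls, measured on log2 of CPM plus 1. The interval from E14 to E16 is also that in which the sums of immune, stromal and immediate-early markers rose most.

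The lists differed in timing. Rising intestinal transcription factors had made a median of 72.8% of their change by E14, and 4 of 12 had passed the midpoint by E12. Absorptive genes had made 34.8%, lipid genes 18.3%, goblet genes 20.1% and enteroendocrine genes 0.7% by the same age. Among the falling lists, nephric duct genes had made a median of 100.2% by E14 and germ cell genes 95.1%, Hox genes 83.4%, ribosomal protein genes 72.2%, oncofetal genes 45.8% and DNA replication genes 40.3%. These medians are descriptions of the members that were called and changed at least 2-fold, with no test between lists.

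**Figure D5:**
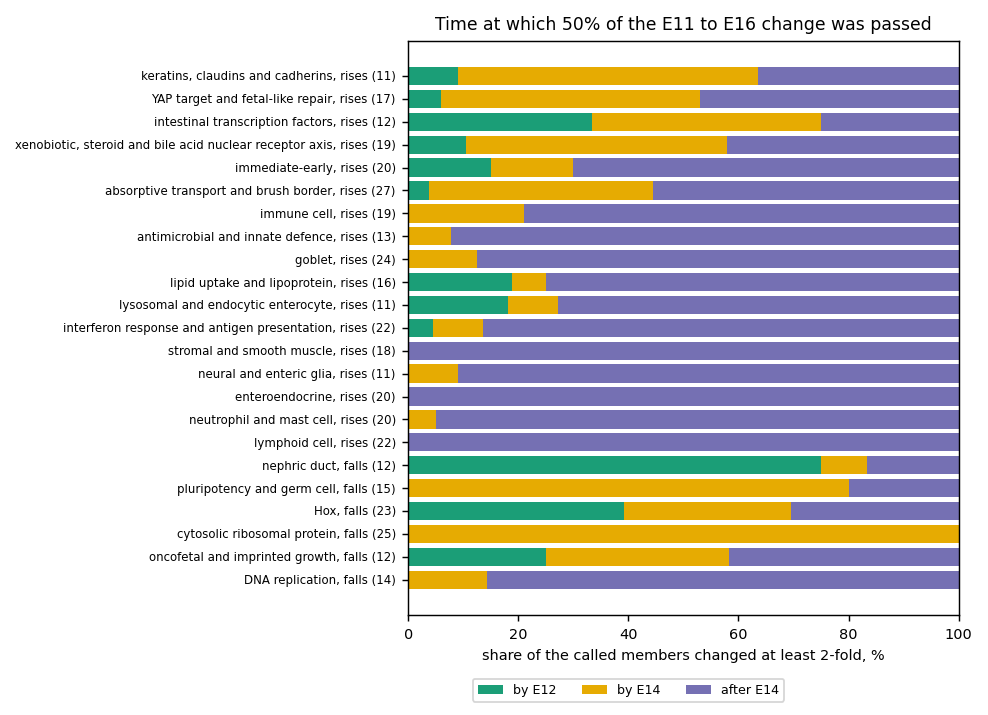
Share of the called members changed at least 2-fold (horizontal axis, %) that passed 50% of their E11 to E16 change by E12 (green), by E14 (yellow) or after E14 (purple), for lists with at least 10 such members (rows, number in brackets). Enteroendocrine, stromal and lymphoid rises lie entirely after E14, ribosomal protein falls entirely between E12 and E14, and 9 of 12 nephric duct falls before E12.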

How the data were processed

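The authors deposited raw gene counts for the series as whole numbers, with STAR 2.5.3a, HTSeq and the GRCm38/mm10 build named per the submitters' processing notes. The annotation release and the strand setting are not given in the sources used here. Reads were 75 bp single-end, per the labels' protocols. Columns of 7 other samples were not used, and 5 rows that name no gene stayed out of library sizes and tests.

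Counts of the 8 hindgut libraries were filtered with filterByExpr, scaled by TMM and fitted together with edgeR 4.0.16 (R 4.3.3), with a quasi-likelihood test of E16 against E11 and Benjamini-Hochberg adjustment, called at 0.05. Alternatives are in the closing section, and the pipeline was tested on simulated data. It recovered 28 of 100 simulated 2-fold changes and 55 of 100 simulated 4-fold changes, and called 3 unchanged genes. A gene that did not pass the test may still have changed. Against a group at 0 in all libraries, folds are bounds from a floor of 3 counts over the group. Against 1 to 3 counts, ratios have 95% exact binomial intervals. Intervals and bounds cover counting error only. Time shares use log2(CPM + 1). Of the symbols, 23901 (99.3%) matched RefSeq, whose promoter table gave the windows.

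Genes were named by a rule (the 12 largest rises and falls at 10 CPM or more, up to 3 members per list and direction, 12 set genes, the largest changes per time class, and the 6 most abundant in each direction), and further list members were named after their values were seen, as were the symbols given with levels only. The comparison and the gene lists were chosen with earlier results of these data known, and the immediate-early, neutrophil and mast cell, and lymphoid lists were added after values were seen.

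Results for some genes are not reported here.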

Additional observations from a re-analysis of the deposited data

How the results depend on the processing

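Of the 9188 calls, between 68.6% and 98.2% were shared, in the same direction, with each alternative other than the 2-fold rule, and no gene called in both was called in opposite directions. The 98.2% belongs to the run without the other-cell and immediate-early lists, which removed only the listed genes. The 2-fold rule called 3916 genes, 2625 higher and 1291 lower. Leaving out 1 library in turn gave 6385 to 9209 calls, 3342 to 4963 higher and 3043 to 4246 lower, with the fewest without E16 replicate 1; fewer samples were fitted there, and a lone E16 or E11 library was assumed to vary like the other ages. Library size scaling gave 9222 calls, 50.4% of them higher, and DESeq2 9268, 56.5% higher, against 53.0% for TMM. Cdx2, which did not pass the test, changed sign under DESeq2 (0.024, adjusted p = 0.954) and without E16 replicate 1 (0.11); leaving out 1 library gave -0.32 to 0.242. Lgr5, which did not pass either, changed sign without E16 replicate 1 (-0.162), with a range of -0.19 to 1.132. For both genes the value without E11 replicate 1 is the end of the range with the opposite sign. The cause was not tested. The medians of all 33 lists kept their sign in each alternative run; 20 moved by at least the median standard error of their members under some alternative, 15 of them without E11 replicate 2. Time classes were within 1.5 times of the values given under library size scaling. Depth was lowest at E16, and thinning all libraries to 13826958 counts gave 9047 calls.

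The replicate numbers did not pair the libraries: correlations of deviations between ages ran from -0.0295 to 0.0425. With the replicate block 8429 genes were called, 8335 of them in the same direction as without it, and of the genes named with a test above only Ascl2 lost its call (adjusted p = 0.0579).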

Other observations

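Steep falls were also seen outside the gene lists. Car14, a membrane carbonic anhydrase, was at 202 and 205 CPM at E11, 9.80 and 12.2 CPM at E14, and 0.370 and 0.376 CPM at E16 (edgeR log2 fold change -9.07 ± 0.33, adjusted p = 3.00e-06). Tekt1, a tektin of ciliary and flagellar microtubules, went from 19.3 and 14.5 CPM to 0, at least 164-fold lower, and G6pc2, a glucose-6-phosphatase relative known from pancreatic islets, from 11 and 15.7 CPM to 0, at least 133-fold lower. Of the 23 stromal and smooth muscle markers, 18 rose and 2 fell. Postn, a matrix gene, fell from 1111 and 817 CPM to 172 and 181 CPM (log2 fold change -2.45 ± 0.17, adjusted p = 2.68e-05), and Fn1, fibronectin, had a small fall (-0.49 ± 0.17, adjusted p = 0.0364) that passed with all libraries or without E16 replicate 1, and did not pass when any of the others was left out (adjusted p from 0.0516 to 0.0802; -0.22 without E16 replicate 2). Among the largest rises, Cps1, the carbamoyl phosphate synthetase of the urea cycle, was at 0 at E11, 4.05 and 3.65 CPM at E14 and 228 and 203 CPM at E16, at least 4155-fold higher.

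Some genes that passed the stricter rule stood next to each other. Along the RefSeq order of tested protein-coding genes there were 50 runs of 4 or more neighbours that passed this rule in the same direction, 45 of them higher and 5 lower. One run of 8 holds S100a1, S100a13, S100a14, S100a16, S100a4, S100a6, S100a8 and S100a9 (chr3:90511034-90695721, GRCm38), all calcium-binding proteins, the last 2 being the subunits of the neutrophil protein calprotectin. Others of 9 and 8 are the Ms4a family (chr19:10997024-11623790) and the class II interval from Psmb8 to Btnl1 (chr17:34198195-34386162), both known from immune cells. Members of such families can be alike in sequence, so their counts are uncertain. The runs were picked after their values were seen, and were neither tested nor compared with a background.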
